A study of Homo sapiens with 3 samples.

Results

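Keratin-associated proteins (KRTAP) are the matrix of the hair shaft, where they are cross-linked through cysteines to the hair keratin filaments. The cornified envelope is the layer of cross-linked protein beneath the membrane of dying epidermal cells, and many of its proteins are encoded side by side in the epidermal differentiation complex on chromosome 1. Neither structure is a part of the colon. The genes KRTAP3-1 and KRTAP2-3, which encode high-sulfur hair matrix proteins, and PRR9, which encodes a proline-rich protein of the epidermal differentiation complex, were examined in DLD1, a long-established human line of colorectal cancer cells. They are 3 of the 60504 genes in the table and were chosen by their FPKM values in the 3 libraries, so their levels and ratios are a description with no test. FPKM gives the fragments of a gene per kilobase of its exons, scaled to the size of the library.

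The RNA-Seq data comprised 3 libraries: 1 of wild-type DLD1 cells, here DLD1 control cells, and 1 of each of 2 DLD1 clones in which BEX2 was knocked out with CRISPR/Cas9, here clone 1 and clone 2. All were the same cell line, and no treatment is given for any of them. Each BEX2-/- library was a single clone selected by sequencing, so a difference between a clone and the control can be that of the clone or that of the knockout, and these cannot be told apart. Depth was recovered from the steps of the low FPKM values and was between 35593989 and 47722374 reads, lowest in clone 1. For BEX2 every library was listed at 0. A floor of 3 reads, set here and not a limit of the listed values, is between 0.0535 and 0.0717 FPKM for this gene. BEX2 was thus below the floor in control and clones alike and gave no check of the labels.

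The cells carried markers of colon epithelium, of which 7 of 12 were at 1 FPKM or more in every library. The hair shaft markers KRT31, KRT33B, KRT35, KRT85 and HOXC13, 5 of 8 examined, were listed at 0 in all libraries, and none of the 8 reached 1 FPKM in any. Their summed level was 0.371 FPKM in the control, 0.226 in clone 1 and 0.751 in clone 2. Over the whole table, 32334 of 60504 genes were listed at 0 in all libraries and 12671 reached 1 FPKM in any. Of 8 epidermal keratinocyte markers, KRT14 and KRT1 were listed at 0 in every library and TP63, the master regulator of epidermis, had 3 reads in clone 2 and 0 in the other libraries. The summed keratinocyte level was 10.5 FPKM in the control, 12.6 in clone 1 and 8.74 in clone 2, nearly all of it from KRT10 and COL17A1. In bulk RNA, fewer cells with a transcript and less of it per cell cannot be told apart.

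KRTAP3-1 (ENSG00000212901) lies on the minus strand of chromosome 17 of GRCh38, from 41008521 to 41019324. Its coding transcript has 1 exon of 594 bases, and a second, non-coding transcript starts further upstream and shares most of that exon. KRTAP2-3 (ENSG00000212724) lies on the same strand from 41059240 to 41060114, 51.0 kb from the start of the coding transcript of KRTAP3-1, with 1 exon of 875 bases. PRR9 (ENSG00000203783) lies on the plus strand of chromosome 1 from 153217584 to 153219317, and its whole coding sequence of 348 bases is in exon 2. No annotated gene overlapped any of them on either strand. The coding transcripts of KRTAP3-1 and PRR9 shared no stretch of 50 bases with transcripts of other genes. The upstream exons of the non-coding transcript of KRTAP3-1 were not searched. KRTAP2-3 shared 39.7% of its 50-base windows, and 34.0% of its 100-base windows, with KRTAP2-1, KRTAP2-2 or KRTAP2-4. How the reads of such stretches were assigned is not given in the sources used here, so the level of KRTAP2-3 is uncertain to that extent.

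The 250 bases before the RefSeq start of each gene are shown as a description. The genes were chosen by their levels, and the same letters, ATATAA, were then seen in each. The RefSeq and GENCODE starts are the same base for KRTAP2-3, PRR9 and KRTAP2-4. For KRTAP3-1 the GENCODE start of the coding transcript lies 14 bases further downstream, and its non-coding transcript starts upstream of the whole window. KRTAP2-4, the near copy next to KRTAP2-3, is shown beside them since it was listed at 0 in every library. It shared 52.6% of its 50-base windows, and 48.1% of its 100-base windows, with KRTAP2-1, KRTAP2-2 or KRTAP2-3. Its 0 is therefore uncertain to that extent. The sequences are those of RefSeq on GRCh38.p14, 5′ to 3′ on the strand of the gene, at chr17:41009129-41009378, chr17:41060115-41060364, chr1:153217334-153217583 and chr17:41065880-41066129. Capitals mark matches, searched on both strands, to the TATA box letters TATAAA, to the overlapping form ATATAA, which was added after the sequences were seen, to TGACTCA, the letters bound by AP-1 factors, and to CTTTGAA or its relative CTTTGAT, bound by LEF1 and other TCF factors.
KRTAP3-1: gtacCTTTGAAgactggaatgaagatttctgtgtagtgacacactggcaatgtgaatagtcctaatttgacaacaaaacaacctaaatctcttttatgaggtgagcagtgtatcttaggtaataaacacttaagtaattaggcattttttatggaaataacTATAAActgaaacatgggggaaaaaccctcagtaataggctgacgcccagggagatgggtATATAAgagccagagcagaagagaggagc
KRTAP2-3: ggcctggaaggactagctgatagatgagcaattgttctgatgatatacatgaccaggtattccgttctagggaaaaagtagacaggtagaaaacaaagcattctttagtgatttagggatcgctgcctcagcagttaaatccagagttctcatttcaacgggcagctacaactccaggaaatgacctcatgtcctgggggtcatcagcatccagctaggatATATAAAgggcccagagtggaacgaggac
PRR9: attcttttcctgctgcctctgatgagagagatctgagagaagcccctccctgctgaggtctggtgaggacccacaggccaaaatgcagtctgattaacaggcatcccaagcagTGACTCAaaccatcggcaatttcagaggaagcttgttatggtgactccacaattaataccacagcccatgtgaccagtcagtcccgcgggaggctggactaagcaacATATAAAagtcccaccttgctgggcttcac
KRTAP2-4: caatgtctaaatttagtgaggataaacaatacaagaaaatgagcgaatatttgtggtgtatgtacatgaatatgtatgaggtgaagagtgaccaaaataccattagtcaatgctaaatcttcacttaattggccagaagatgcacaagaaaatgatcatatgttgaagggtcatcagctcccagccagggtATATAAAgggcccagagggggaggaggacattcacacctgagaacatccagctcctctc

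ATATAA began 29 bases before the RefSeq start in KRTAP3-1 and KRTAP2-3 and 30 bases before it in PRR9. From the GENCODE start of KRTAP3-1 the distance was 43 bases. Among 35116 promoters of the same length, 7.63% held ATATAA anywhere and 1.26% had it on the gene strand beginning 40 to 20 bases before the RefSeq start, a window that KRTAP3-1 meets from its RefSeq start and not from its GENCODE start. TATAAA was found in 10.7% of promoters and TGACTCA in 4.20%. TGACTCA was present in PRR9 alone of these genes. CTTTGAA was present in KRTAP3-1 alone and in 3.80% of promoters, and CTTTGAT, in 2.26% of promoters, was found in none of them. KRTAP2-4 carried ATATAA 59 bases before its RefSeq start. Aligned without gaps at ATATAA, 26 of the 29 bases from there to the start of KRTAP2-3 were identical in KRTAP2-4, and 46 of 69 when 40 further bases upstream were included. A match is a description of the letters, not a site in use. ATATAA was picked because it was seen in these genes, so its share among promoters is no test. A role of these letters in the levels was not tested.

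All 3 genes had their lowest level in clone 1, an intermediate level in the control and their highest level in clone 2. KRTAP3-1 was at 4.33 FPKM in the control, 0.0775 FPKM in clone 1 and 65.5 FPKM in clone 2. The reads behind them were 149, 2 and 2267. Clone 1 thus held KRTAP3-1 at a level given by only 2 reads, whereas in clone 2 the gene was above all but 0.742% of the genes in the table. Without a pseudocount the fold in clone 2 relative to the control was 15.1, with a 95% counting interval of 12.8 to 18.0. In clone 1 KRTAP3-1 was 55.9-fold lower than in the control, with an interval of 15.2 to 466. Between the clones the fold was 845, and the 2 reads of clone 1 leave it between 234 and 6985. These intervals were obtained from exact limits of the reads and cover counting error only.

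KRTAP2-3 was at 1.83 FPKM in the control, 0.257 FPKM in clone 1 and 13.9 FPKM in clone 2, from 76, 8 and 582 reads. It was 7.12-fold lower in clone 1 than in the control (interval 3.44 to 17.1) and 7.62-fold higher in clone 2 (interval 5.99 to 9.80). The order of the libraries was that of KRTAP3-1, with a smaller distance between them, since the fold between the clones was 54.3 (interval 27.4 to 126).

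PRR9 was at 2.79 FPKM in the control, 0.594 FPKM in clone 1 and 13.9 FPKM in clone 2, from 163, 26 and 815 reads. It was 4.70-fold lower in clone 1 than in the control (interval 3.10 to 7.41) and 4.97-fold higher in clone 2 (interval 4.20 to 5.92). PRR9, the gene on another chromosome, had the smallest fold between the clones, 23.4 (interval 15.8 to 36.0). The counting intervals of the 3 libraries did not overlap for any of the 3 genes, which were chosen for these values. The share of all genes with such intervals was not computed.

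As a BEX2-/- group the clones did not differ from the control beyond their own spread. The mean of the clones was 32.8 ± 46.3 FPKM (SD, n = 2) for KRTAP3-1, against 4.33 FPKM in the control. It was 7.10 ± 9.67 FPKM (SD, n = 2) for KRTAP2-3 and 7.25 ± 9.41 FPKM (SD, n = 2) for PRR9. Each difference between this mean and the control was smaller than 1 SD, and the higher mean came from clone 2 alone. How far control cells vary among themselves is unknown, because the control was 1 library.

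The proportion between the genes was not constant across libraries. In FPKM, a scale per length, KRTAP3-1 stood 2.37-fold above KRTAP2-3 in the control (interval 1.78 to 3.16) and 4.70-fold above it in clone 2 (interval 4.29 to 5.16). In clone 1 the ratio was 0.302, with an interval of 0.0312 to 1.51, and an order of these genes was not detectable at this depth. KRTAP3-1 stood 1.55-fold above PRR9 in the control (interval 1.23 to 1.95) and 4.72-fold above it in clone 2 (interval 4.35 to 5.11), but PRR9 was 7.67-fold above KRTAP3-1 in clone 1 (interval 1.92 to 66.7). KRTAP2-3 and PRR9 had the same FPKM within counting error in clone 2, where the ratio of PRR9 to KRTAP2-3 was 0.997 (interval 0.895 to 1.11). PRR9 was the higher in the control, by 1.53-fold (interval 1.16 to 2.03). These intervals cover counting error only. They leave out the shared stretches of KRTAP2-3, 39.7% of its 50-base windows. KRTAP3-1 was scaled by 725 exon bases of both transcripts, against 594 in the coding transcript, which the intervals also leave out.

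Across the table, ratios were taken of FPKM + 1, which understates the change of low genes, and a gene was called when it differed at least 2-fold. The filter was 1 FPKM for the average of the control value and the clones' mean, and 11675 genes met it. All 3 genes passed this filter, to which clone 2 contributed most of the value. KRTAP3-1, KRTAP2-3 and PRR9 had log2 ratios of -2.31, -1.17 and -1.25 in clone 1 relative to the control, where 0.959% of genes were called lower and 1.06% higher. Their log2 ratios in clone 2 relative to the control were 3.64, 2.40 and 1.97, where 1.33% of genes were called higher and 0.737% lower. Between the clones they were 5.95, 3.57 and 3.22 in favour of clone 2, at ranks 3, 12 and 15 of the 11675 genes, where 2.51% of genes were called higher in clone 2 and 1.68% lower. All 3 were called lower in clone 1 and higher in clone 2, as were 23 genes in all, or 0.197%. These are the values by which the genes were chosen, and both clones share the control library.

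The genes with the most similar pair of log2 ratios were sought among 10049 other protein-coding genes, by the distance between the pairs over the 3 libraries. The ratios were of FPKM + 1, so differences between genes with low values are understated in these distances. The nearest genes were not sought on another scale. For KRTAP3-1 the nearest was LCN2, which encodes the siderophore-binding lipocalin 2, at a distance of 0.33. LCN2 was at 8.45 FPKM in the control, 1.16 FPKM in clone 1 and 142 FPKM in clone 2. Without the added 1, its fall in clone 1 was smaller than that of KRTAP3-1, from 4.33 to 0.0775 FPKM. CXCL8, a neutrophil chemokine, followed at a distance of 0.35, with 5.62, 0.148 and 67.5 FPKM in the same order. CCL20 (1.13), CXCL5 (1.29) and OLR1 (1.31), which encode 2 chemokines and a receptor for oxidised lipoprotein, lay further off in distance.

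For KRTAP2-3 the nearest were IL32, a cytokine, at a distance of 0.33 and LTB, which encodes lymphotoxin beta, at 0.42. IL32 was at 1.31 FPKM in the control, 0.131 FPKM in clone 1 and 8.93 FPKM in clone 2. PRR9 came next, at 0.43, before SDC4, which encodes the proteoglycan syndecan 4, at 0.51 and the growth factor gene CSF1 at 0.56. For PRR9 the nearest was TNFAIP3, which encodes the ubiquitin-editing protein A20, at a distance of 0.17. TNFAIP3 was at 3.35 FPKM in the control, 0.656 FPKM in clone 1 and 15.0 FPKM in clone 2, close in level to PRR9 in each. IL32 (0.26), CSF1 (0.29), the cytokine gene CSF2 (0.41) and KRTAP2-3 (0.43) completed its nearest 5. KRTAP2-3 and PRR9 were among the nearest 5 genes of each other, and KRTAP3-1 was among those of neither. The 3 genes were chosen by their values in these libraries, so their closeness to each other is a description and no result.

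**Figure D1:**
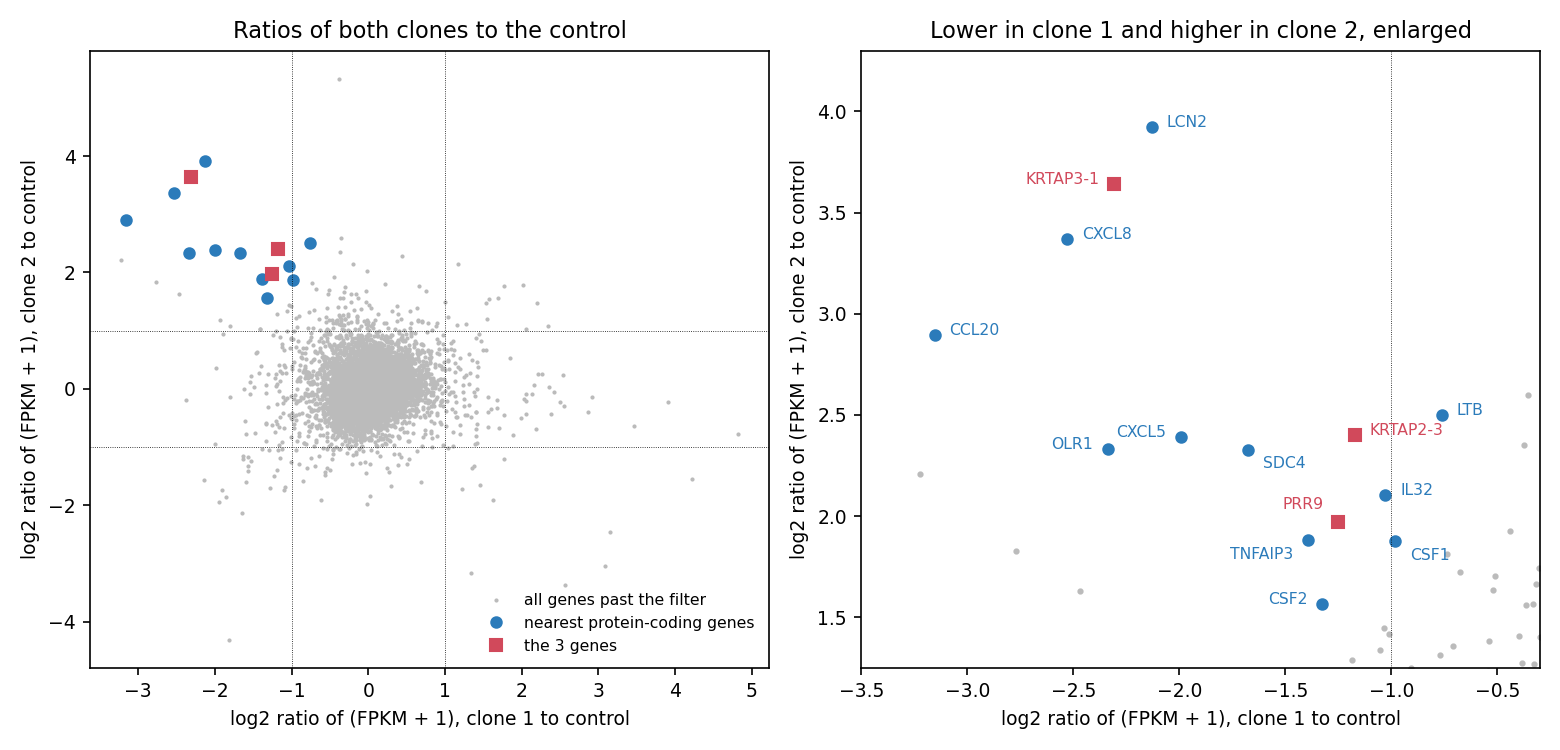
Log2 ratio of FPKM + 1 in clone 1 (horizontal) and clone 2 (vertical) relative to the control for the 11675 genes past the filter, with the lower-in-clone-1 and higher-in-clone-2 corner enlarged on the right; dotted lines mark 2-fold. KRTAP3-1 lies between LCN2 and CXCL8, and KRTAP2-3 and PRR9 lie among IL32, TNFAIP3 and CSF1.

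Most genes in the neighbourhood of the members were not detected. Within 100 kb of KRTAP3-1 there were 21 other annotated genes in the table, of which 12 were listed at 0 in all libraries. This share is near that of all genes, of which 32334 of 60504 were so listed. KRTAP2-3 was the only one of the 21 at 1 FPKM or more in any library, and the highest of the rest was KRTAP1-5, with 0.338 FPKM in clone 2. The near copies KRTAP2-1, KRTAP2-2 and KRTAP2-4 were all listed at 0, which is uncertain where they share bases with KRTAP2-3. The genes named next were chosen after their values were seen. KRTAP1-5, between the members, had 2 reads in the control, 1 in clone 1 and 19 in clone 2. KRTAP1-1 had 7 reads in clone 2 and 0 in the other libraries, and KRTAP3-2 had 5, 0 and 10 reads. These traces were highest in clone 2 as in the members, at a small share of the members' level. KRT39, with 0, 3 and 10 reads, and KRTAP3-3, with 0, 0 and 1, were also highest in clone 2. AC004231.1, with 3, 0 and 0 reads, KRT23, with 1, 4 and 4, and KRT40, with 2, 1 and 2, did not have their highest FPKM in clone 2.

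Within 100 kb of PRR9 there were 7 other genes, of which 6 were listed at 0 in every library. They included LOR, which encodes loricrin, the main protein of the cornified envelope, and LELP1, the gene nearest to PRR9 upstream. The exception was the pseudogene SPRR2C, with 3 reads in clone 2.

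**Figure D2:**
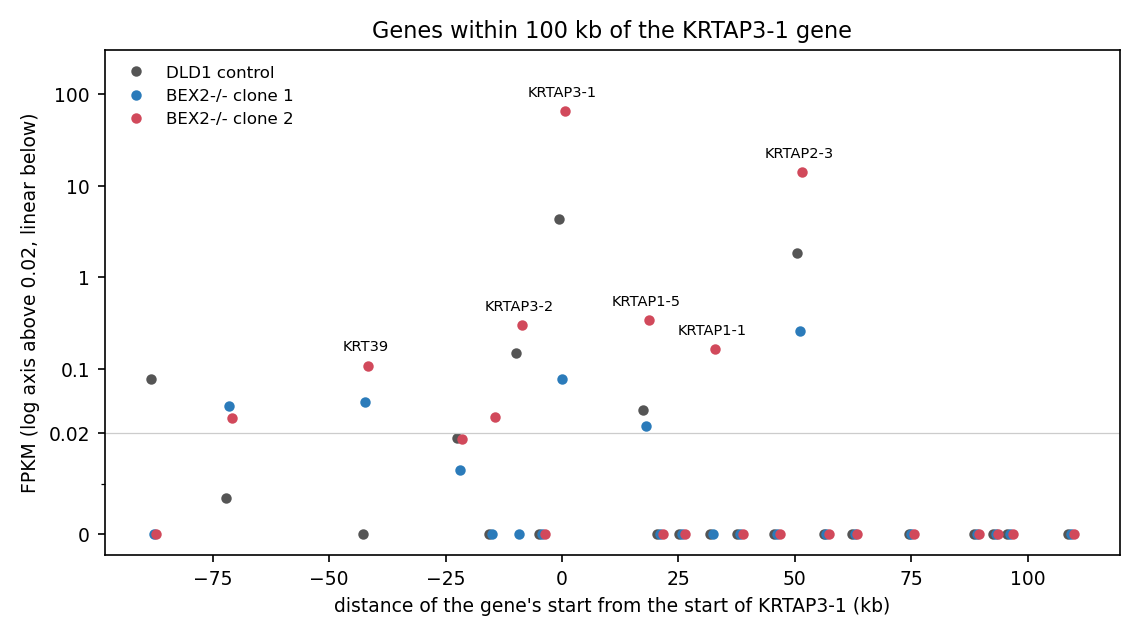
FPKM of each gene within 100 kb of KRTAP3-1 in the 3 libraries, by the distance of its start from that of KRTAP3-1 along the chromosome (kb), with the libraries of a gene set slightly apart, on an axis that is logarithmic above 0.02 and linear below. KRTAP3-1 and KRTAP2-3 stand above 1 FPKM in control cells and clone 2, while all other genes stay at or below 0.338 FPKM.

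The wider families were largely silent. Of 94 KRTAP genes in the table, 75 were listed at 0 in all libraries and 3 passed the filter, the members and KRTAP5-1. KRTAP5-1, an ultrahigh-sulfur type, was at 1.74 FPKM in the control, 2.03 FPKM in clone 1 and 2.78 FPKM in clone 2, and was not called in any comparison. KRTAP3-1 and KRTAP2-3 together made up 68.9% of the summed KRTAP level in the control, 12.8% in clone 1 and 94.9% in clone 2. The other 92 KRTAP genes summed to 2.78, 2.27 and 4.23 FPKM, and of the 17 above 0 in any library 10 had their highest level in clone 2. Most of these rest on a few reads, and clone 1 had the lowest depth. The share of all genes highest in clone 2 was not computed. The 18 late cornified envelope genes (LCE) were all listed at 0 in all libraries. Of 10 small proline-rich genes (SPRR), which lie in the same complex as PRR9, none passed the filter, and their sum was 0.422 FPKM in the control, 1.20 in clone 1 and 0.513 in clone 2.

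Of 26 keratin genes of the hair follicle, not all of them keratins of the hair shaft, 14 were listed at 0 in all libraries. None passed the filter. That share of zeros is near the one over the whole table, 32334 of 60504 genes. The 26 genes summed to 0.851 FPKM in the control, 0.596 FPKM in clone 1 and 1.98 FPKM in clone 2. Of the 12 detected, 7 were highest in clone 2, 3 in the control and 2 in clone 1. These counts too have no share of all genes beside them, and the depth was lowest in clone 1. KRT34, KRT74 and KRT86, chosen after their values were seen, had 6, 8 and 12 reads in the control, 3, 7 and 8 in clone 1 and 32, 43 and 49 in clone 2. Others, chosen in the same way, had another order. KRT71 had 35, 11 and 21 reads in control, clone 1 and clone 2, KRT36 had 10, 1 and 9, and KRT84 had 0, 7 and 0. KRT86 can share reads with near copies such as KRT81 and is uncertain.

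Of 27 further cornified envelope genes, PRR9 included, 9 passed the filter, and PRR9 was the only one called in either clone relative to the control. Of all genes past the filter, 0.959% were called lower in clone 1 and 1.33% higher in clone 2. Between the clones 2.51% of these were called higher in clone 2 and 1.68% lower. ANXA1, an annexin cross-linked into the envelope, was at 40.9 FPKM in the control, 27.5 in clone 1 and 59.7 in clone 2, and was called between the clones (log2 ratio 1.09). S100A10, a ligand of annexin A2, had the opposite order, with 308 FPKM in the control, 514 in clone 1 and 187 in clone 2 (log2 ratio -1.45 between the clones). The desmosomal plaque proteins DSP, PPL and EVPL and the envelope genes CNFN, PI3 and S100A11 were not called in any comparison. Over the 9 genes the median log2 ratio between the clones, clone 2 to clone 1, was -0.26, against -0.05 over all 11675 genes. Of 12 transglutaminase and PADI genes, which encode enzymes that cross-link or deiminate these proteins, none passed the filter. TGM1, the main transglutaminase of the envelope, was at 1.08 FPKM in the control, 0.730 in clone 1 and 0.679 in clone 2.

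Among 23 regulators of hair and epidermis 11 passed the filter, of which 1 was called in each clone relative to the control. This was FOXQ1, a forkhead factor of hair differentiation, at 41.6 FPKM in the control, 15.0 in clone 1 and 85.3 in clone 2, in the order of the members. Of all genes past the filter, 0.197% were called lower in clone 1 and higher in clone 2. Between the clones 3 regulators were called higher in clone 2 and 1 lower, against 2.51% and 1.68% of all genes past the filter. LEF1, a Wnt effector needed for hair follicles, was at 12.8, 6.54 and 18.8 FPKM in control, clone 1 and clone 2, and MSX2, a homeobox factor of the hair follicle, was at 9.17, 5.83 and 18.4 FPKM. HR, the hairless corepressor, had the opposite order, at 1.46 FPKM in the control, 3.57 in clone 1 and 0.809 in clone 2. GRHL2, GRHL3, OVOL1, MSX1, KLF4 and the vitamin D receptor gene VDR were not called in any comparison. HOXC13, which drives hair keratin genes in the follicle, was listed at 0 in all libraries. Over the 11 regulators the same median was 0.25.

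Of 24 epidermal keratinocyte genes 4 passed the filter and none was called in a clone relative to the control. The skin protease gene KLK7 was called between the clones, with 3.21 FPKM in the control, 1.47 in clone 1 and 4.09 in clone 2. Of all genes past the filter, 2.51% were called higher in clone 2 than in clone 1. ITGB4, KRT10 and COL17A1 were not called in any comparison. KRT15 did not pass the filter, with 0.256 FPKM in the control, 1.04 in clone 1 and 0.771 in clone 2.

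**Figure D3:**
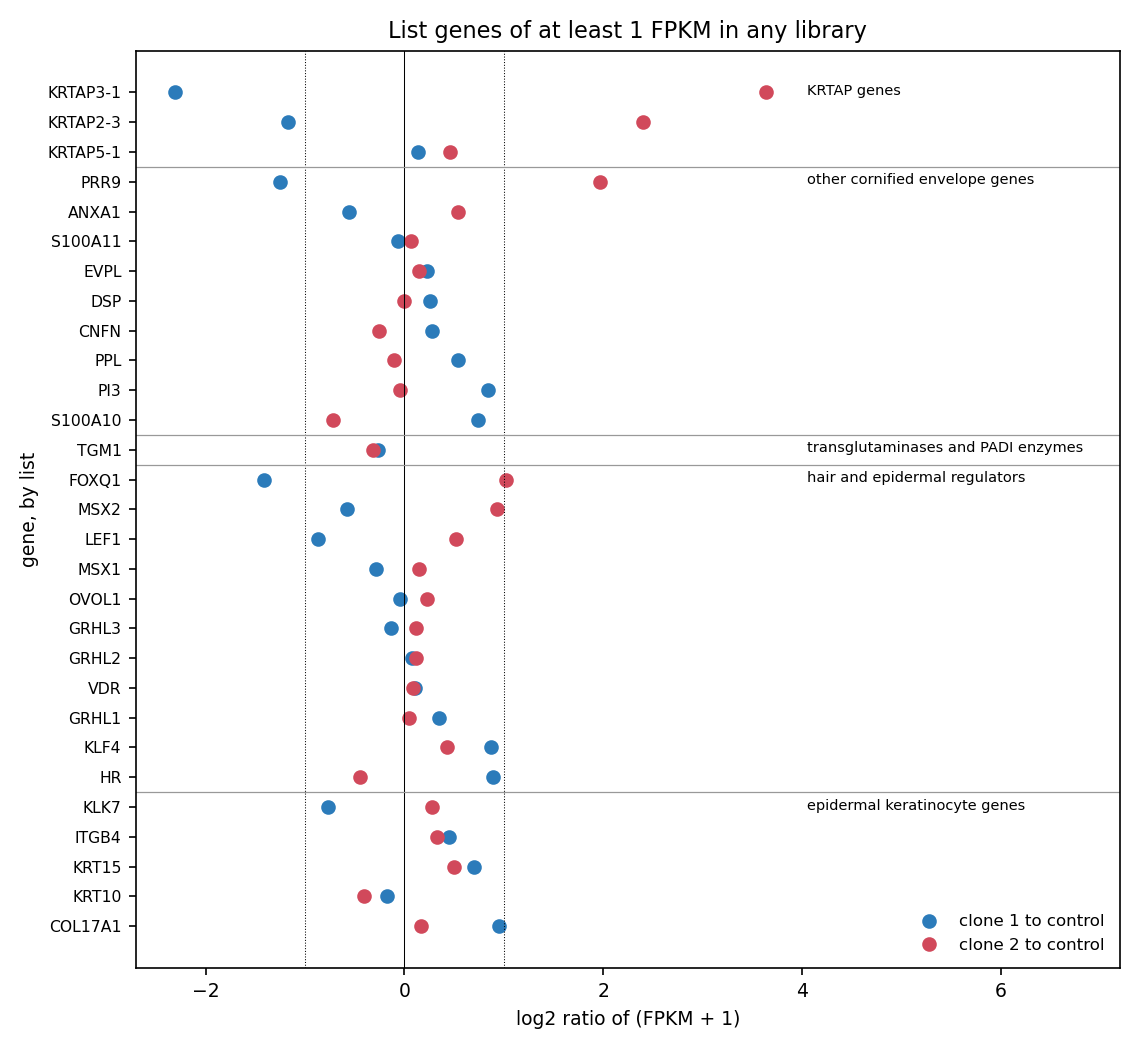
Log2 ratio of FPKM + 1 in each clone relative to the control for the genes of the lists that reached 1 FPKM in any library; dotted lines mark 2-fold. KRTAP3-1, KRTAP2-3 and PRR9 are past 2-fold in both clones, in opposite directions, and among the rest only FOXQ1 is.

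Of the 12 colon epithelium markers, 8 had the order opposite to that of the 3 genes, highest in clone 1 and lowest in clone 2. These were KRT20, LGALS4, VIL1, GPA33, CDX1, CDX2, CDH17 and EPCAM. The share of all genes with this order was not computed, so the count has no background beside it. KRT20, a keratin of mature enterocytes, was at 18.9 FPKM in the control, 117 FPKM in clone 1 and 0.931 FPKM in clone 2. LGALS4, a galectin of the gut, was at 2.28, 60.2 and 0.119 FPKM, and VIL1, which encodes the brush border protein villin, was at 3.61, 13.2 and 0.221 FPKM. EPCAM, an adhesion molecule of epithelia, had the same order over a narrower range, at 265, 282 and 219.6 FPKM. The simple epithelial keratin genes KRT8 and KRT18 instead had the order of the 3 genes, with KRT8 at 538, 510.3 and 611 FPKM and KRT18 at 412, 312 and 455 FPKM. The remaining 2 markers had neither order, with KRT19 at 305, 442 and 494 FPKM and CDH1 at 42.6, 53.9 and 50.5 FPKM. The summed level of the 12 markers was 1657 FPKM in the control, 1924 in clone 1 and 1886 in clone 2. The part of these markers in the levels of KRTAP3-1, KRTAP2-3 and PRR9 was not tested.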

How the data were processed

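RNA-Seq libraries of DLD1 control cells (1) and of BEX2-/- DLD1 clones (2) were analysed, with each clone as 1 replicate. The authors used the Illumina TruSeq RNA kit and deposited FPKM values per gene, and their own comparisons were not used. The submitters' processing notes name hg19, Trim Galore 0.3.7, STAR 2.5, Cufflinks 2.2.1 and DESeq 1.22.1. The annotation, the strand setting and the treatment of reads with several positions are not given in the sources used here. Symbols, positions on GRCh38 and exon lengths came from GENCODE release 29, which held 56996 of the identifiers and lacked 3508. The positions are those of that annotation, not of the authors' build.

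Reads were recovered as FPKM times exon length times the depth at which low values became whole. Within 0.02 of a whole number lay 98.7% to 98.8% of low values of genes with 1 transcript and 88.6% to 89.3% of those of other genes. All values of the 3 genes were whole. Intervals were exact Poisson limits and, for folds, Clopper-Pearson limits at 95%.

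Ratios were taken as log2(FPKM + 1) after a filter of a mean of at least 1 FPKM, and 2-fold was called. No test was made, because the control had 1 library. The genes and the 8 lists were chosen with earlier results of these data known. The genes named were the 3 genes, the 5 nearest protein-coding genes of each, list genes and neighbours within 100 kb of at least 1 FPKM (up to 10 a list) and cell type markers, and others are said to be chosen after their values were seen. The methods were tested on simulated data. The alternatives were a pseudocount of 0.1 FPKM or none, scaling by the median ratio or to TPM, other filters and the omission of each clone. Calculations were made in Python 3.11.15 (pandas 2.3.3, numpy 2.4.6 and scipy 1.17.1), and plots in matplotlib 3.10.9.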

Additional observations from a re-analysis of the deposited data

How the results depend on the processing

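In the 36 recomputed log2 ratios of KRTAP3-1, KRTAP2-3 and PRR9 within a clone or between the clones no direction changed, and all stayed past 2-fold. Scaling by the median ratio moved none of the 9 ratios beyond counting error. In the order clone 1 to control, clone 2 to control and clone 2 to clone 1, a pseudocount of 0.1 FPKM gave -4.64, 3.89 and 8.53 for KRTAP3-1, -2.44, 2.86 and 5.30 for KRTAP2-3 and -2.06, 2.27 and 4.33 for PRR9. Without a pseudocount, and with values under 3 reads set to 3, they were -5.22, 3.92 and 9.14, then -2.83, 2.93 and 5.76, and -2.23, 2.31 and 4.55. Scaling to TPM gave -3.70, 3.91 and 7.61, then -1.96, 2.83 and 4.78, and -1.78, 2.28 and 4.06. Low values move most because a pseudocount weighs more on them. The mean log2 ratio over the clones was 0.67 for KRTAP3-1, 0.61 for KRTAP2-3 and 0.36 for PRR9, and omission of a clone left -2.31 or 3.64, -1.17 or 2.40 and -1.25 or 1.97. Each of these means changed direction without clone 2.

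The numbers of genes called are given in the order higher and lower in clone 1, higher and lower in clone 2, and higher and lower in clone 2 relative to clone 1. A pseudocount of 0.1 FPKM gave 225, 231, 292, 215, 479 and 384 genes, with 49 lower in clone 1 and higher in clone 2. Scaling to TPM gave 223, 177, 305, 166, 443 and 320, with 43 of the last kind. A mean of at least 5 FPKM gave 42, 41, 71, 29, 146 and 76. Without the filter 218 genes were higher in clone 1 and 301 were lower in clone 2 than in clone 1. For the 3 KRTAP genes past the filter, the members among them, the median between the clones was a log2 ratio of 3.57, against 5.30 with a pseudocount of 0.1 FPKM, 4.78 with TPM and 0 without the filter, where most of the genes are at 0. Without the filter the median of the cornified envelope genes was also 0.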

Other observations

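Some genes of skin and hair had their highest level in clone 1, where KRTAP3-1, KRTAP2-3 and PRR9 had their lowest. They were chosen after their values were seen, and all stayed under 1 FPKM. FOXN1, the factor mutated in nude mice, had 25 reads in the control, 88 in clone 1 and 19 in clone 2, or 0.145, 0.680 and 0.109 FPKM. SPRR1A, a small proline-rich protein of the same complex as PRR9, had 3, 9 and 1 reads, and KRT6A, a keratin of stressed epidermis, had 2, 16 and 4 reads. S100A8 and S100A9, also chosen after their values were seen, which encode the subunits of calprotectin, were listed at 0 in the control and clone 1 and had 17 and 24 reads in clone 2, so within one gene complex some genes were highest in clone 1 and others, with PRR9, in clone 2.

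KRTAP4-1, an ultrahigh-sulfur gene, was highest in the control, with 16 reads in the control, 0 in clone 1 and 5 in clone 2.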
